A study of Homo sapiens with 6 samples.

Results

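PHOX2A, HAND1, HAND2, GATA2, GATA3, ISL1, INSM1 and TBX2 are 8 transcription factors named as parts of the adrenergic core regulatory circuit of neuroblastoma. They were chosen by name and not by their values, and all 8 were found by symbol among the 40111 genes of the deposited table. Messenger RNA had been sequenced from cells labelled as BE(2)-M17, a human neuroblastoma line described as neuroblast, in 3 libraries in which the long non-coding RNA LINC00894 had been lowered with CRISPR-Cas9 and in 3 libraries from control cells, whose genotype is given as NC. The comparison asks which genes differ when LINC00894 is lowered. The labels give no guide sequence, no description of what the control cells received, no statement whether a line was a clone or a pool, and no word on whether each library had a culture of its own. A p-value here therefore reflects the scatter of 6 libraries, part or all of which may be technical.

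In sympathetic neuroblasts a small set of transcription factors bind their own enhancers and those of each other, and this mutual activation is known as a core regulatory circuit. The paired-like homeodomain factor PHOX2A takes part in the noradrenergic programme. HAND2, GATA2, GATA3 and ISL1 act with it to switch on noradrenaline synthesis and to keep sympathetic precursors alive. Adrenergic neuroblastoma cells keep this set active, and a mesenchymal state of the same tumours uses other factors.

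Values are FPKM, which are reads scaled to the length of the gene model and to the reads assigned in the library. Knockdown libraries held 22898079 to 28782977 assigned reads and control libraries 29276653 to 48089716. LINC00894 stood at 1.10, 1.30 and 0.867 FPKM in knockdowns 1, 2 and 3, against 2.00, 2.24 and 2.21 FPKM in controls 1, 2 and 3, a log2 fold change of -0.93 (SE 0.17, limma adjusted p = 0.0406). Control 1 stood apart from the other controls. HSPA6, a strictly inducible heat shock gene, read 195, 155 and 161 FPKM in the knockdowns and 161 FPKM in control 1, against 0.830 and 1.18 FPKM in controls 2 and 3. Over all genes tested, control 1 was closer to the knockdowns than to controls 2 and 3, by group means, in 60.8%, and values without it are given where a call differs.

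The levels of the 8 factors did not form the set that the cell label implies. GATA2 and HAND1 were the most abundant, GATA3, ISL1 and TBX2 were intermediate, HAND2 and INSM1 were low, and PHOX2A was at or near 0 in all 6 libraries. PHOX2A had 0, 0 and 2 reads in knockdowns 1, 2 and 3 and 0 reads in each control. In control 2, the deepest library, 3 reads of PHOX2A would have come to 0.0350 FPKM, and in knockdown 1, the shallowest, to 0.0734 FPKM. No fold change is given for PHOX2A, since both groups lay under that limit.

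Other defining genes of the labelled cell type were also near 0. MYCN, which is amplified in the BE(2) family of lines, read 0.267, 0.162 and 0.173 FPKM in the knockdowns and 0.235, 0.199 and 0.168 FPKM in the controls. Of 8 neuroblast and sympathoadrenal markers, 7 were analysed and 5 stayed under 0.5 FPKM in every library. Those 5 were DBH, the noradrenaline-forming enzyme, the granule protein CHGB, and the neuronal genes STMN2, GAP43 and NEFM. STMN2, a microtubule regulator of growing neurons, had 2 reads in each knockdown and 4, 8 and 2 reads in controls 1, 2 and 3. The other 2 markers, the granule protein CHGA and the adhesion molecule L1CAM, were low, with CHGA at 0.819 ± 0.177 FPKM in the knockdowns and 0.426 ± 0.00543 FPKM in the controls and L1CAM at 1.02 ± 0.0891 FPKM in the knockdowns and 1.79 ± 0.348 FPKM in the controls (SD, n = 3 each). The markers thus go against the neuroblast label in both groups, and the genes are called here by their names. TH was not analysed here.

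**Figure D1:**
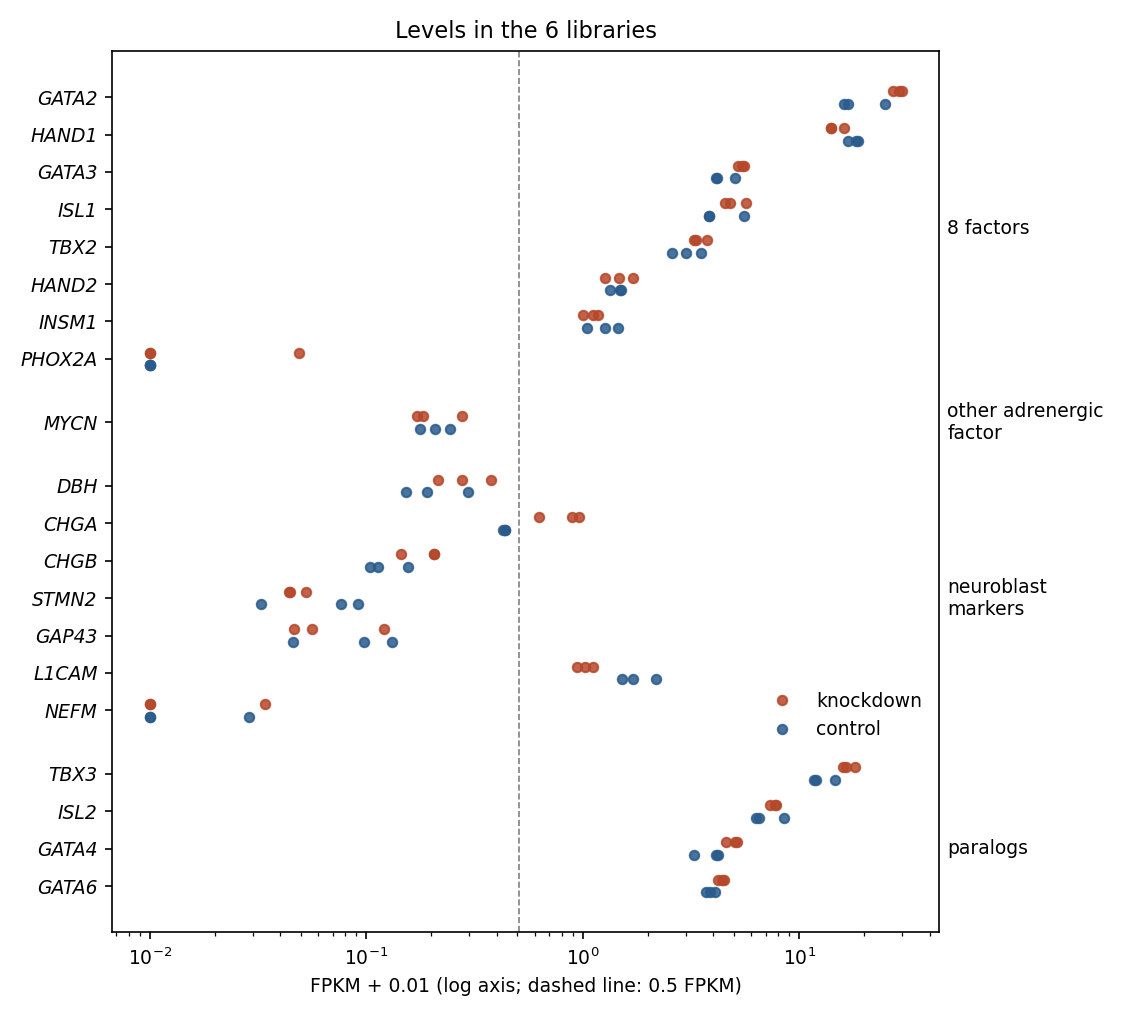
Level of the 8 factors, of 1 other adrenergic factor, of 7 neuroblast markers and of 4 paralogs of the factors, as FPKM + 0.01 on a log axis, with 1 point per library (knockdown above, control below in each row). GATA2 and HAND1 lie highest, while PHOX2A, MYCN and most neuroblast markers lie left of the line at 0.5 FPKM in both groups.

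In the order of levels, neighbouring factors often could not be separated. In the controls GATA2 averaged 19.3 ± 4.88 FPKM and HAND1 17.9 ± 0.994 FPKM (SD, n = 3), and their ranges overlapped. GATA3 at 4.46 ± 0.530 FPKM and ISL1 at 4.39 ± 1.005 FPKM overlapped as well, TBX2 followed at 3.02 ± 0.460 FPKM with all its controls below those of ISL1 and GATA3, and HAND2 at 1.43 ± 0.0902 FPKM overlapped with INSM1 at 1.25 ± 0.208 FPKM. Among the 18548 genes tested, which reached 0.5 FPKM in 3 or more libraries, the mean control level of GATA2 exceeded that of 88.2% of genes, HAND1 87.1%, GATA3 55.3%, ISL1 54.8%, TBX2 45.9%, HAND2 29.1% and INSM1 26.2%. The order was the same in the knockdowns, where GATA2 at 28.5 ± 1.34 FPKM lay clear of HAND1 at 14.7 ± 1.19 FPKM and HAND2 at 1.47 ± 0.221 FPKM clear of INSM1 at 1.09 ± 0.0900 FPKM (SD, n = 3). GATA2 and HAND1 together made up 72.5% of the summed FPKM of the 8 factors in the knockdowns and 71.9% in the controls.

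Of the 8 factors, 7 passed the filter on low values, and of these 0 rose and 0 fell in the knockdown (limma-trend on log2(FPKM + 0.1), Benjamini-Hochberg adjusted p under 0.05 over all genes tested). In the same test 6.2% of all genes were called, 4.14% higher and 2.06% lower. These are 768 genes higher and 382 lower, and with median-of-ratios scaling the balance turned to 338 higher and 495 lower. Before adjustment, p was under 0.05 for 3 of 7 factors, GATA2, HAND1 and GATA3, against 32.6% of all genes. Run on the reads, limma-voom called 1 of 7 higher, GATA2, and 0 lower, against 16.9% of all genes, 12.4% higher and 4.5% lower. The groups did not overlap in 3 of 7 factors, GATA2 and GATA3 with the knockdown higher and HAND1 with the knockdown lower, and they did not overlap in 38.2% of all genes, 23.9% higher and 14.3% lower. The share among the 7 factors is thus near that of genes in general. Their median log2 fold change was 0.19, against 0.07 over all genes. In bulk RNA, fewer cells that express a factor and less of its RNA per cell cannot be told apart.

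GATA2, a zinc finger factor of sympathetic neurons and of blood progenitors, differed most. It read 29.7, 27.1 and 28.8 FPKM in knockdowns 1, 2 and 3, against 24.9, 16.2 and 16.8 FPKM in controls 1, 2 and 3. All 3 knockdowns lay above every control, and control 1 lay nearer to them than to the other controls. The log2 fold change was 0.59 (SE 0.17, 95% interval 0.19 to 0.99), a 1.502-fold higher level, with an adjusted p of 0.0756 in limma. Limma-voom gave 0.60 with an adjusted p of 0.0355, and the authors' deposited table, whose test is not given in the sources used here, gives 0.45 with an adjusted p of 0.0324. Without control 1 the value was 0.78 (limma adjusted p = 0.00073), and with any 1 of the remaining 5 libraries left out it lay between 0.47 and 0.62 with limma adjusted p between 0.168 and 0.23.

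Since GATA2 is also a factor of blood cells, markers of blood were set beside it. Of 16 red cell and leukocyte markers, 8 were tested. Limma called 3 of them higher, the globin genes HBB, HBA1 and HBA2, against 4.14% of all genes. Limma-voom called 6 of the 8 higher, adding AHSP, CD14 and LYZ, against 12.4% of all genes. Of these 6, only HBB reached 0.5 FPKM in all 3 controls. The others passed the filter through the knockdowns, which favours a call as higher, and AHSP stayed under 0.5 FPKM in every control. The summed level of the 16 markers was 379 to 860 FPKM in the knockdowns against 4.42 to 68.6 FPKM in the controls. Most of this was HBB, at 786, 329 and 400 FPKM in the knockdowns and 4.03, 2.22 and 61.8 FPKM in controls 1, 2 and 3. In control 1, the library that stood apart from the other controls, the sum was 7.40 FPKM and GATA2 read 24.9 FPKM. GATA1, the erythroid member of the GATA family, lay under the filter on low values. It overlapped between groups, at 0.354 ± 0.144 FPKM in the knockdowns and 0.295 ± 0.0872 FPKM in the controls (SD, n = 3). The part of blood RNA in the level of GATA2 in the knockdowns was not tested.

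GATA3, the second GATA factor of the circuit, had a smaller difference of the same sign. It read 5.21, 5.58 and 5.43 FPKM in the knockdowns, against 5.07, 4.18 and 4.12 FPKM in controls 1, 2 and 3. The knockdowns lay above all controls, by a narrow margin over control 1. The log2 fold change was 0.28 (SE 0.10, 95% interval 0.03 to 0.53, limma adjusted p = 0.126), and the authors' deposited table gives 0.16 with an adjusted p of 0.704. Without control 1 the value was 0.37 with a limma adjusted p of 0.00754, and with median-of-ratios scaling it was 0.16. The ratio of GATA2 to GATA3, which does not depend on how libraries are scaled, was 5.70, 4.85 and 5.30 in the knockdowns and 4.92, 3.87 and 4.09 in the controls, and the ranges overlapped (exact permutation test over libraries, two-sided p = 0.2, where the smallest possible is 0.1).

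HAND1, a basic helix-loop-helix factor that pairs with E proteins, was the 1 factor that was lower in every knockdown than in every control. It read 13.99, 13.96 and 16.03 FPKM in the knockdowns, against 16.7, 18.6 and 18.2 FPKM in the controls. Knockdown 3 came close to control 1. The log2 fold change was -0.29 (SE 0.08, 95% interval -0.48 to -0.09, limma adjusted p = 0.0792), and the authors' deposited table gives -0.41 with an adjusted p of 0.0482. Without control 1 it was -0.33 with a limma adjusted p of 0.0162, and with any 1 of the remaining 5 libraries left out between -0.35 and -0.25 with limma adjusted p between 0.159 and 0.244. GATA2 and HAND1 were thus the 2 of the 8 factors that the authors' deposited table holds at an adjusted p under 0.05, against 7.45% of all its genes with a p-value and 14.7% of those that passed the filter on low values.

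The ratio of GATA2 to HAND1 does not depend on how libraries are scaled, but it had to separate the groups. GATA2 was higher and HAND1 lower in every knockdown than in every control. It was 2.12, 1.94 and 1.80 in the knockdowns, against 1.49, 0.868 and 0.925 in controls 1, 2 and 3. All knockdowns lay above control 1, which lay above controls 2 and 3. The log2 difference was 0.88, with a two-sided p of 0.1 in an exact permutation test over libraries, the smallest that 3 against 3 allows. This pair was chosen after its values were seen, and the outcome of the test was fixed by those values, so it adds no support.

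HAND2, which in sympathetic precursors keeps the noradrenergic programme on, overlapped between groups. It read 1.46, 1.71 and 1.26 FPKM in the knockdowns from 120, 174 and 131 reads, against 1.33, 1.49 and 1.48 FPKM in the controls from 140, 258 and 230 reads. The lowest and the highest of the 6 values were both knockdowns. The log2 fold change was 0.03 (SE 0.16, 95% interval -0.35 to 0.41, limma adjusted p = 0.905), and with median-of-ratios scaling it was -0.08, so its sign depends on the scaling. In GENCODE 29, 24.1% of the exon bases of HAND2 are shared with HAND2-AS1 on the other strand, and the library protocol marks no strand. HAND2-AS1 read only 0.111 ± 0.0226 FPKM in the knockdowns and 0.128 ± 0.0207 FPKM in the controls (SD, n = 3).

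ISL1, a LIM homeodomain factor of sympathetic, sensory and motor neurons, overlapped as well. It read 4.76, 4.55 and 5.66 FPKM in the knockdowns, against 5.55, 3.824 and 3.803 FPKM in controls 1, 2 and 3. Controls 2 and 3 were below every knockdown, while control 1 was above 2 of them. The log2 fold change was 0.20 (SE 0.17, 95% interval -0.22 to 0.61, limma adjusted p = 0.461), and without control 1 it was 0.37 with a limma adjusted p of 0.0355. With median-of-ratios scaling it was 0.0760, and it lay between 0.10 and 0.26 when 1 of the remaining 5 libraries was left out.

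TBX2, a T-box repressor that blocks cell cycle inhibitors, and INSM1, a zinc finger repressor of neuroendocrine cells, showed the same arrangement of libraries with opposite signs. TBX2 read 3.25, 3.32 and 3.75 FPKM in the knockdowns, against 3.499, 2.995 and 2.579 FPKM in controls 1, 2 and 3, with control 1 among the knockdown values. Its log2 fold change was 0.19 (SE 0.14, 95% interval -0.14 to 0.52, limma adjusted p = 0.368). It was 0.0706 with median-of-ratios scaling, 0.30 without control 1, 0.13 without knockdown 3 and 0.0837 without control 3. Limma-voom without control 1, added after seeing the data, gave TBX2 0.31 with an adjusted p of 0.0205. INSM1 read 1.17, 1.10 and 0.989 FPKM in the knockdowns from 76, 89 and 81 reads, against 1.03, 1.26 and 1.45 FPKM in the controls from 86, 172 and 178 reads. Control 1 again lay within the knockdown range. Its log2 fold change was -0.17 (SE 0.18, 95% interval -0.61 to 0.26, limma adjusted p = 0.538). It was -0.29 with median-of-ratios scaling, -0.29 without control 1, -0.11 without knockdown 3 and -0.0661 without control 3.

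**Figure D2:**
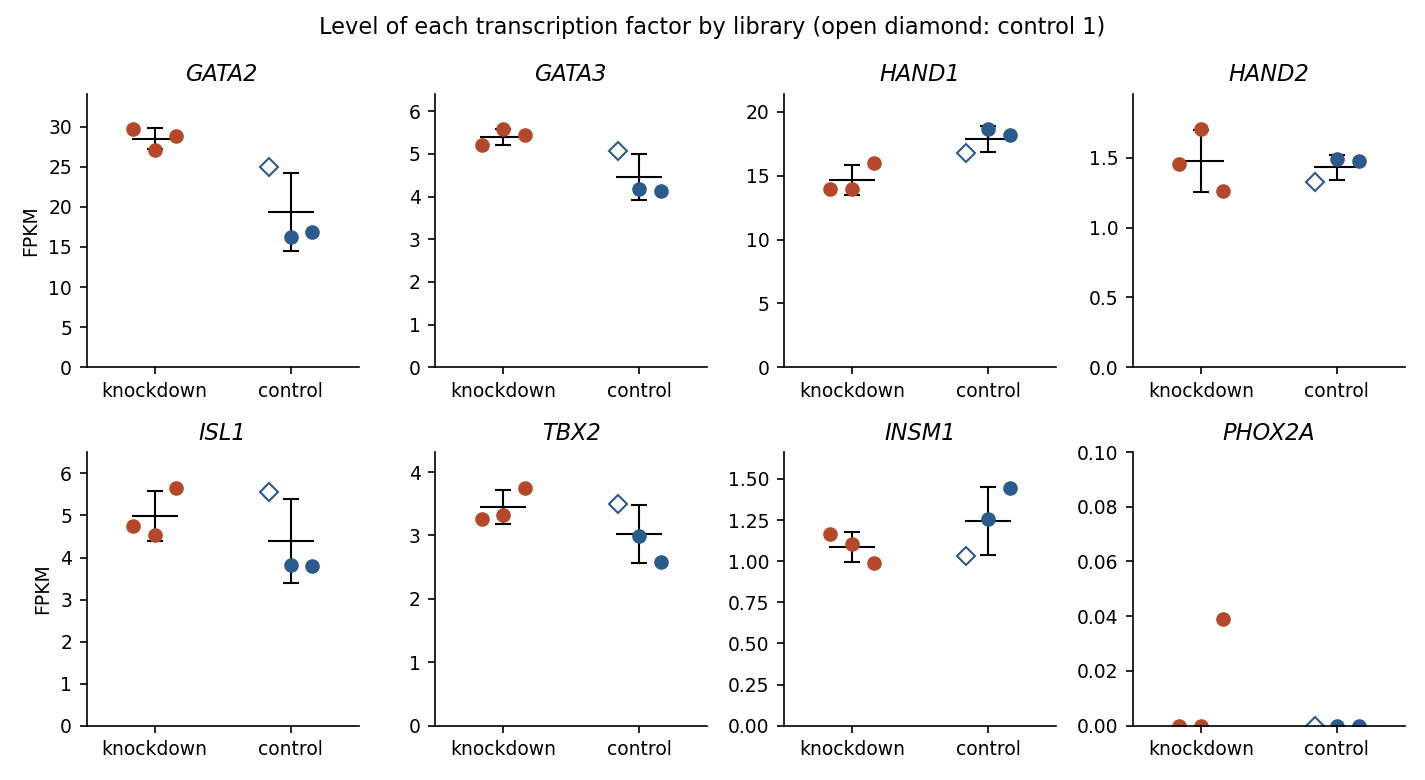
FPKM of each of the 8 factors in each library (vertical axes from 0, scaled per gene), with knockdowns left, controls right, control 1 as an open diamond, and the bar and whiskers as the mean and SD of 3 libraries (none drawn for PHOX2A). The knockdowns lie above all controls for GATA2 and GATA3 and below all controls for HAND1, and control 1 lies toward or within the knockdown values in most panels.

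By the same measure control 1 was closer to the knockdowns in 6 of the 7 tested factors, HAND1 being the exception, against 60.8% of all genes. On the log2(FPKM + 0.1) scale control 1 exceeded the mean of controls 2 and 3 by 0.59 for GATA2, 0.28 for GATA3, 0.53 for ISL1 and 0.32 for TBX2, and it differed by -0.14 for HAND1, -0.15 for HAND2 and -0.36 for INSM1. The mean of the knockdowns differed from control 1 by 0.19 for GATA2, 0.09 for GATA3, -0.16 for ISL1, -0.03 for TBX2, -0.19 for HAND1, 0.13 for HAND2 and 0.06 for INSM1. Without control 1, GATA2, GATA3 and ISL1 were called higher and HAND1 lower in limma, in a fit that called 43.6% of all genes, 28% higher and 15.7% lower. With any 1 of the remaining 5 libraries left out limma called 0 factors and 0 of all genes, with 3676 to 4530 genes at an unadjusted p under 0.05, so each limma call named here rests on all 6 libraries or on leaving out control 1. What sets control 1 apart was not tested.

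**Figure D3:**
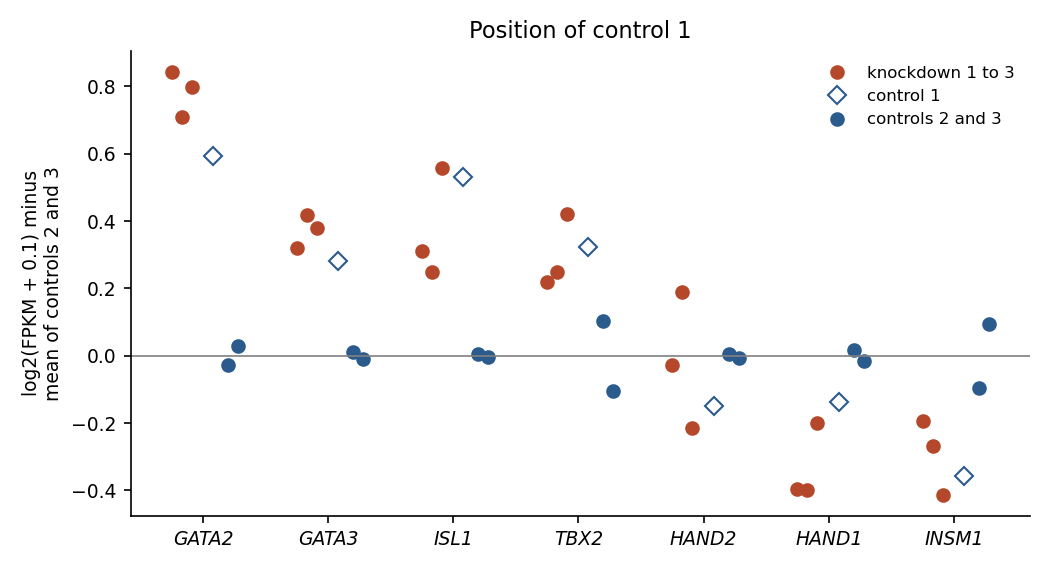
Distance of each library from the mean of controls 2 and 3 for the 7 tested factors, as a difference of log2(FPKM + 0.1), with knockdowns as filled red points, control 1 as an open diamond and controls 2 and 3 as filled blue points. Control 1 lies at 0.59 for GATA2 and 0.53 for ISL1, near the knockdowns, and at -0.14 for HAND1, between the groups.

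**Figure D4:**
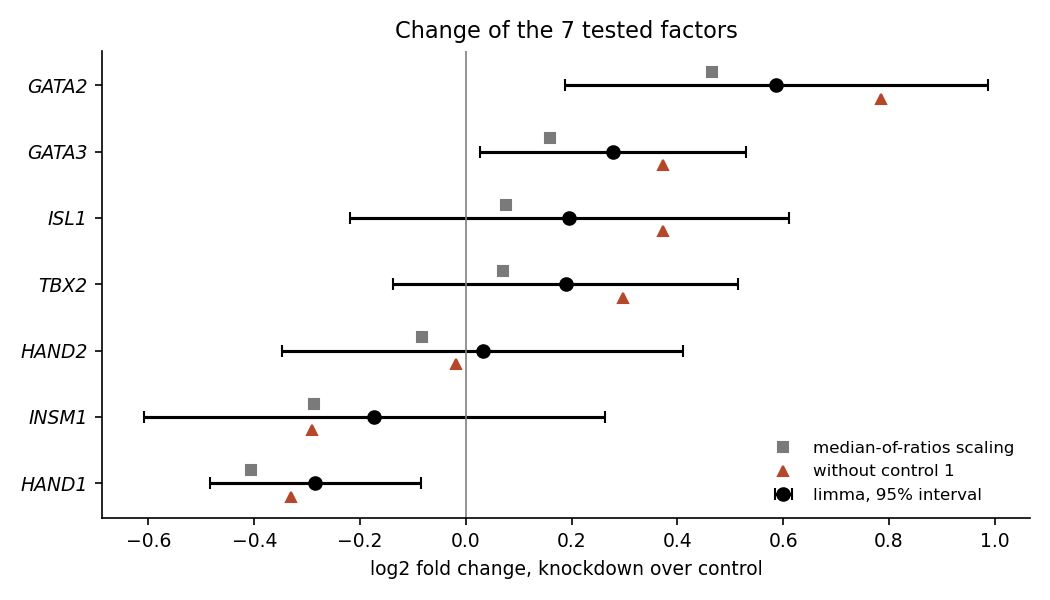
Log2 fold change of the 7 tested factors, knockdown over control, as the limma estimate with its 95% interval (black), the estimate with median-of-ratios scaling (grey squares) and the estimate without control 1 (red triangles). The intervals of GATA2, GATA3 and HAND1 exclude 0 before adjustment over all genes, and that of HAND2 is centred near 0.

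Dimer partners and cofactors of these factors all passed the filter. Of the 14 listed, 0 rose and 0 fell in limma, against 6.2% of all genes, and 2 had an unadjusted p under 0.05, against 32.6%. The median log2 fold change was -0.03 against 0.07 over all genes. Limma-voom called 2 of the 14 higher, against 12.4% of all genes. They were TCF4, an E protein that pairs with HAND factors, and ZFPM1, also known as FOG1, which binds GATA factors. ZFPM1 read 1.33, 1.34 and 1.21 FPKM in the knockdowns, against 1.10, 0.678 and 0.552 FPKM in controls 1, 2 and 3, with a log2 fold change of 0.72 (SE 0.26, limma adjusted p = 0.117). HDAC1, part of the corepressor complex that INSM1 recruits, was the most abundant at 78.2 ± 3.17 FPKM in the knockdowns and 62.7 ± 10.8 FPKM in the controls (SD, n = 3), with a limma adjusted p of 0.123. Its partners HDAC2 and the demethylase KDM1A had log2 fold changes of 0.16 and -0.13, each with a limma adjusted p of 0.164.

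Of 15 other transcription factors of the adrenergic state, 14 were analysed, 6 lay under the filter and 8 were tested. Those under the filter included MYCN, SOX11, SIX3 and LMO1. Among the 8 tested, 0 rose and 0 fell in limma and in limma-voom, which called 6.2% and 16.9% of all genes. An unadjusted limma p under 0.05 was found for 0 of the 8, against 32.6% of all genes, and the median log2 fold change was 0.10. The smallest p belonged to EYA1, a transcriptional coactivator and phosphatase, HEY1, a Notch target, DACH1, a transcriptional corepressor, and PBX3, a TALE homeodomain factor, with log2 fold changes of 0.34, -0.32, 0.42 and 0.27 and limma adjusted p of 0.188, 0.193, 0.198 and 0.235. HEY1 was the most abundant, at 34.0 ± 2.84 FPKM in the knockdowns and 43.0 ± 8.17 FPKM in the controls (SD, n = 3).

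Genes that these factors are known to switch on or mark mostly lay under the filter. Of 17 listed, 14 were analysed and only 6 passed the filter, of which 0 rose and 0 fell in limma, 3 had an unadjusted p under 0.05, and the median log2 fold change was -0.09. Over all genes 6.2% were called in limma and 32.6% had an unadjusted p under 0.05. Limma-voom called the granule genes CHGA and SCG2 higher and L1CAM lower, 3 of 6 against 16.9% of all genes. The controls alone would not have passed CHGA or SCG2 through the filter, which favours a call as higher. CHGA stayed under 0.5 FPKM in every control. SCG2, secretogranin II, read 2.49, 1.99 and 2.01 FPKM in the knockdowns, against 1.38, 0.145 and 0.296 FPKM in controls 1, 2 and 3. Its log2 fold change was 2.10 (SE 0.63, limma adjusted p = 0.084). L1CAM had a log2 fold change of -0.75 (SE 0.18, limma adjusted p = 0.0575), and RET, the receptor for GDNF family ligands, one of -0.33 (SE 0.20, limma adjusted p = 0.29). CHGA had 0.79 (SE 0.26, limma adjusted p = 0.0986). At an adjusted p under 0.05 the authors' deposited table holds 0 of the 14 higher and 1 lower, against 7.45% of all its genes. The lower 1 was L1CAM, with an adjusted p of 0.000302 there.

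Most listed factors of the mesenchymal neuroblastoma state passed the filter, but PRRX1, AEBP1 and GLIS3 did not. PRRX1 was near 0, at a mean of 0.0340 FPKM in the knockdowns and 0.0618 FPKM in the controls. Of 26 listed, 23 were tested, 1 rose, 1 fell and 21 did not pass in limma. Over all genes 4.14% were called higher and 2.06% lower. Of the 23, 7 had an unadjusted limma p under 0.05, against 32.6% of all genes, and the median log2 fold change was 0.00. FOSL1, an AP-1 subunit, rose to 23.7, 18.6 and 19.3 FPKM in the knockdowns, against 12.001, 9.455 and 10.63 FPKM in the controls, a log2 fold change of 0.93 (SE 0.13, limma adjusted p = 0.0335). ELK4, an ETS factor that acts with serum response factor, fell to 7.33, 7.82 and 8.02 FPKM in the knockdowns, against 14.4, 13.76 and 11.99 FPKM in the controls, a log2 fold change of -0.78 (SE 0.09, limma adjusted p = 0.0335). For FOSL1 and ELK4 control 1 lay with the other controls. TWIST1, a mesenchymal helix-loop-helix factor, had -0.37 and RUNX2, a skeletal factor, -0.42, with limma adjusted p of 0.0649 and 0.115.

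Some close paralogs of the 8 factors stood above the factors themselves. Of 11 listed paralogs, 6 passed the filter, and 0 rose and 0 fell in limma, against 6.2% of all genes. Of the 6, 3 had an unadjusted p under 0.05, against 32.6% of all genes. Limma-voom called TBX3 higher and TBX1 lower, 2 of 6 against 16.9% of all genes. TBX3, the nearest relative of TBX2, read 18.1, 15.9 and 16.5 FPKM in the knockdowns, against 14.71, 12.006 and 11.71 FPKM in the controls, above TBX2 in every library. Its log2 fold change was 0.40 (SE 0.11, limma adjusted p = 0.0674). ISL2 averaged 7.62 ± 0.259 FPKM in the knockdowns and 7.12 ± 1.20 FPKM in the controls, above ISL1 in both groups. GATA4 averaged 4.92 ± 0.294 FPKM in the knockdowns and 3.85 ± 0.516 FPKM in the controls, and GATA6 4.36 ± 0.119 FPKM in the knockdowns and 3.87 ± 0.188 FPKM in the controls (SD, n = 3). TBX1 had a log2 fold change of -0.55 (SE 0.13, limma adjusted p = 0.0562). Of the 11 paralogs the authors' deposited table holds 1 higher and 1 lower at an adjusted p under 0.05, against 7.45% of all its genes. They were INSM2, which lay under the filter, with an adjusted p of 0.00418, and TBX1, with 0.0018.

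Antisense RNAs beside the factors were measured for 4 of them. GATA2-AS1, which starts inside the span of GATA2 on the other strand and shares no exon base with it in GENCODE 29, read 7.62, 6.98 and 6.30 FPKM in the knockdowns, against 5.326, 5.197 and 5.002 FPKM in the controls. All knockdowns lay above all controls, and here control 1 lay close to the other controls. Its log2 fold change was 0.42 (SE 0.09, limma adjusted p = 0.0508), and limma-voom called it higher. TBX2-AS1, which shares no exon base with TBX2, had a log2 fold change of -0.15 (limma adjusted p = 0.615), and GATA3-AS1 averaged 0.0652 FPKM in the knockdowns and 0.0590 FPKM in the controls.

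The summed levels of glial and of stromal markers overlapped between groups, while some single markers did not. Summed over 6 Schwann cell and glial markers the level was 4.40 to 4.96 FPKM in the knockdowns and 3.58 to 5.04 FPKM in the controls, and over 10 fibroblast and endothelial markers 7.37 to 7.84 FPKM in the knockdowns and 6.48 to 8.82 FPKM in the controls. In limma 0 of the 2 and 0 of the 3 tested members of these lists were called, against 6.2% of all genes. Before adjustment 0 had p under 0.05, against 32.6% of all genes. Limma-voom called 1, the receptor gene PDGFRA, higher, against 12.4% of all genes. PDGFRA passed the filter through the knockdowns, which favours a call as higher, since only control 1 among the controls reached 0.5 FPKM. Every knockdown lay above every control for the receptor gene ERBB3 of the glial list and for PDGFRA, PECAM1, DCN and THY1 of the stromal list. PECAM1, DCN and THY1 lay under the filter, with DCN and THY1 at no more than 0.0380 FPKM in any library. Among tested markers this held for 1 of 2 glial and 1 of 3 stromal ones, against 23.9% of all genes tested. PDGFRA read 0.746, 0.669 and 0.699 FPKM in the knockdowns, against 0.530, 0.340 and 0.490 FPKM in the controls, and the part of these cells in the levels of the 8 factors was not tested.

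Without control 1, limma called 28% of all genes higher and 15.7% lower, and the lists are to be read against these shares. Of the 8 tested adrenergic factors it called 1 higher (PBX3) and 1 lower (HEY1), and of the 14 partners 2 higher (HDAC1 and ZFPM1) and 1 lower (KDM1A). Of the 6 tested targets it called 1 higher (SCG2) and 1 lower (L1CAM), of the 6 tested paralogs 2 higher (ISL2 and TBX3) and 1 lower (TBX1), and of the 23 tested mesenchymal factors 3 higher and 5 lower. Of the 2 tested antisense RNAs it called GATA2-AS1 higher, and of the 8 tested blood markers 6 higher (AHSP, CD14, HBA1, HBA2, HBB and LYZ) and 0 lower. SCG2 and these blood markers, except HBB, passed the filter through the knockdowns, which favours a call as higher.

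The genes whose levels over the 6 libraries were most like each factor were described by Pearson's r of log2(FPKM + 0.1) among 7651 named genes with a mean of at least 5 FPKM. They were GPBP1L1 for GATA2 (r = 0.9997), STAT3 for GATA3 (r = 0.998), C9orf16 for HAND1 (r = 0.996), EIF3H for TBX2 (r = 0.995), MAP9 for INSM1 (r = 0.990), CDC34 for ISL1 (r = 0.984) and PLEKHA4 for HAND2 (r = 0.918). Each is the highest of 7651 values over only 6 libraries and is given as a description. GPBP1L1, for example, read 23.8, 23.1 and 23.4 FPKM in the knockdowns, against 22.4, 19.2 and 19.4 FPKM in controls 1, 2 and 3, the same arrangement as GATA2 over a smaller range.

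The genes lie on separate chromosomes except for HAND1 and ISL1, which are both on chromosome 5. In GRCh38 with GENCODE 29, GATA2 (ENSG00000179348) spans 128479427 to 128493185 on the minus strand of chromosome 3, GATA3 (ENSG00000107485) spans 8045378 to 8075203 on the plus strand of chromosome 10, and HAND1 (ENSG00000113196) spans 154474972 to 154478264 on the minus strand of chromosome 5. The lengths implied by the FPKM values lay between -2.25% and 0.88% of the GENCODE 29 exon unions for the 8 genes. Because the factors of such a circuit are known to bind one another's regulatory DNA, promoter windows from RefSeq (GRCh38.p14, 250 bases before to 50 bases after an annotated start) were searched on both strands for 6 motifs. AGATAA and, separately, the letters TGATAA are bound by GATA factors. CAGCTG and, as a second form, CATCTG are bound by helix-loop-helix factors. TAATTA is a homeodomain motif, while GGTGTGA belongs to T-box factors. Of the 8 genes, 6 matched the table, all but INSM1 and TBX2, with 12 windows. Shown are the 2 windows that hold GATA letters, ISL1 and HAND2, and those of the 2 factors with the lowest limma p, GATA2 and HAND1, which hold none of the 6 motifs. Capitals mark the matches, and each sequence runs 5′ to 3′ on the strand of the gene.
ISL1, chr5:51383198-51383497, plus strand: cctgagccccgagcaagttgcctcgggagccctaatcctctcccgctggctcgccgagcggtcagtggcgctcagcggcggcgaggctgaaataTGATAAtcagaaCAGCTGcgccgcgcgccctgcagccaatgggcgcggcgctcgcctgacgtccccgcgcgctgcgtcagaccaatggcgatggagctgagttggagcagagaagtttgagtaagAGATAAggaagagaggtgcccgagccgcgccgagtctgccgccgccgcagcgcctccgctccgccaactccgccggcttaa
HAND2, chr4:173530180-173530479, minus strand: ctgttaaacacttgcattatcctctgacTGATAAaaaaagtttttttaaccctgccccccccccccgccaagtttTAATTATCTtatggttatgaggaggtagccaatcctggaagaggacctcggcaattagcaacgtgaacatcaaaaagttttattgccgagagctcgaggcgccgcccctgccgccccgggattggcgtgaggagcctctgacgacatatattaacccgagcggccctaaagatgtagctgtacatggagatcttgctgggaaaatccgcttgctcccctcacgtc
GATA2, chr3:128493152-128493451, minus strand: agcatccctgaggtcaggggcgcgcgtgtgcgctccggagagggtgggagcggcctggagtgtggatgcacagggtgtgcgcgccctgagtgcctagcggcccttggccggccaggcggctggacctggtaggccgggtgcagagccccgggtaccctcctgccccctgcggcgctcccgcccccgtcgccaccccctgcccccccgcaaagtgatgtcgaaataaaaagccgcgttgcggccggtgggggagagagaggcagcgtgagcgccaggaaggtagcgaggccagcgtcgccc
HAND1, chr5:154478178-154478477, minus strand: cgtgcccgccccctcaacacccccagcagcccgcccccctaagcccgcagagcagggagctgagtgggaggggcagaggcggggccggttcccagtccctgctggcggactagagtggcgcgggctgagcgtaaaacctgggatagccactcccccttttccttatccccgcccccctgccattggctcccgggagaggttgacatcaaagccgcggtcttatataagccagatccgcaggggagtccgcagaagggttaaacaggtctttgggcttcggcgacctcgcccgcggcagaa

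In the ISL1 window TGATAA begins 156 bases, CAGCTG 144 bases and AGATAA 31 bases before the start. In the HAND2 window TGATAA begins 222 bases before the start, and TAATTA at 175 bases overlaps the reverse complement of AGATAA, which begins at 172 bases. One more match, CAGCTG, was found in a second GATA2 window and in 1 of the 6 GATA3 windows, and the PHOX2A window held none. Over all 35116 windows AGATAA was present in 10.3%, TGATAA in 7.53%, CAGCTG in 17.9%, CATCTG in 14.7%, TAATTA in 4.84% and GGTGTGA in 3.45%. The window of PHOX2A, which was near 0, had a GC content of 73.7% and that of GATA2, the most abundant, 72.3%, against a median of 58.7% over all windows. These matches describe letters only, and no binding was measured.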

How the data were processed

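Per the labels' protocols, libraries were made from poly(A) RNA with a second strand that keeps no strand information, and per the submitters' processing notes reads were aligned with HISAT2. The counter, genome build and annotation, and the authors' test, are not stated in the labels. The deposited table gives FPKM per library, the authors' group means (a signal of reads scaled by 1 size factor per library), their log2 fold change and their p-value and adjusted p-value. Whole reads were recovered from the FPKM: 100% of values above 0 were whole within 0.1 read. The length of each gene was fitted to make its values whole, so this share is partly fixed in advance. With 1 fitted size factor per library, the authors' group means followed from the reads for 100% of genes. The number of columns matching no sample was 0.

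The 18548 genes that reached 0.5 FPKM in 3 or more of 6 libraries were tested on log2(FPKM + 0.1) with limma 3.58.1 in R 4.3.3 (trend, group only, two-sided, Benjamini-Hochberg adjusted p under 0.05), and tables were handled in Python 3.11.15 with pandas 2.3.3. A fold change on this scale understates that of low genes. The procedure was tested on simulated reads with the same scatter in every library, which do not cover a control that stands apart. Alternatives were median-of-ratios scaling, pseudocounts of 1 and 0.01, no filter, a filter at 2 FPKM, limma-voom on the recovered reads, a block for the replicate number, leaving out each library and, added after seeing the data, limma-voom without control 1.

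The 8 factors and the gene lists were chosen with earlier results of these data known. Named genes are the 8 factors, LINC00894, from each list those that passed and up to 4 with the smallest p, and levels of paralogs and antisense RNAs. Other named genes, such as HSPA6, were chosen after their values were seen. Coordinates are those of GENCODE 29 on GRCh38.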

Additional observations from a re-analysis of the deposited data

How the results depend on the processing

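Of the 7 tested factors, GATA2, GATA3, HAND1, ISL1, TBX2 and INSM1 kept their direction under every alternative run. HAND2 did not: its log2 fold change was -0.0828 with median-of-ratios scaling, -0.0178 without control 1, -0.0711 without knockdown 2 and -0.0182 with limma-voom without control 1, and over the libraries left out in turn it ran from -0.0711 to 0.131, and the cause was not tested. The number of factors called higher was 1 with limma-voom, 0 to 3 over the libraries left out in turn and 4 with limma-voom without control 1, and the number called lower was 0 to 1 over the libraries left out and 1 with limma-voom without control 1. Those 4 were GATA2, GATA3, ISL1 and TBX2, and the factor called lower was HAND1. Median-of-ratios scaling moved the median log2 fold change of all genes to -0.05.

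Over all genes, 768 were called higher and 382 lower. Median-of-ratios scaling turned this balance, with 338 higher and 495 lower. No filter gave 25 higher and 17 lower, a filter at 2 FPKM 1121 higher and 638 lower, limma-voom 2295 higher and 835 lower, and limma-voom without control 1 5910 higher and 3503 lower. Over the libraries left out in turn the counts ran from 0 to 5187 higher and from 0 to 2906 lower, the highest being without control 1. With the replicate number as a block, limma called 0 genes higher and 0 lower, with 5990 at an unadjusted p under 0.05, and 0 of the 7 factors. Deviations of same-numbered libraries correlated at 0.149, 0.0781 and 0.0373, and those of differently numbered libraries at -0.126 to 0.0992. With 3 libraries per group these values cannot decide whether same-numbered libraries were paired. PHOX2A was at or under 3 reads in each library, which limits what can be said of it to its low level.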
